A study of Rattus norvegicus with 17 samples.

Results

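The genes of the aminoacyl-tRNA synthetases were followed in CD4+ T helper cells from rats on 3 vitamin D diets. Members were the transcript clusters (the array's units of measurement) annotated to exactly 1 gene symbol of this family, and the cluster of highest mean was kept where a gene had several. This gave 30 genes among the 14506 genes with a single symbol, of which 17 encode cytosolic enzymes, 11 mitochondrial enzymes and 2 (Gars1 and Kars1) enzymes that serve both compartments. All 30 passed the filter on dim genes and were among the 10879 genes tested. Cars2, Ears2, Iars2, Mars2 and Wars2 were not analysed here.

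Every animal was a female, age-matched Dark Agouti (DA) rat immunized with MOG, myelin oligodendrocyte glycoprotein, which induces experimental autoimmune encephalomyelitis (EAE), a model of multiple sclerosis. The T cells were sorted by FACS from inguinal lymph nodes on day 7, and total RNA was measured on 17 arrays. The deprived diet held 0 IU of vitamin D (5 arrays), the regular diet 2 IU (6 arrays) and the supplemented diet 10 IU (6 arrays), each given for 5 weeks ahead of immunization and onwards. The labels call the arrays biological replicates. They do not state the age, the feed amount behind the IU, or whether an array holds 1 rat or a pool. All groups were immunized, so every difference below lies between diets within the same immunization.

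An aminoacyl-tRNA synthetase joins an amino acid to its tRNA, the step at which the genetic code is read. Animal cells carry a cytosolic set, which feeds the ribosomes that make most proteins, and a mitochondrial set, encoded in the nucleus and imported, which charges mitochondrial tRNAs for the translation of respiratory chain subunits. Several cytosolic synthetases sit together in a multi-synthetase complex held by the scaffold proteins Aimp1, Aimp2 and Eef1e1. An activated T cell grows and divides quickly and raises its protein synthesis as it does so.

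The values are log2 signals deposited by the authors, so a difference of 1 is a 2-fold change. All 8 T cell markers, Cd4 (mean 9.95) and Cd3e (10.6) among them, passed the level filter. So did 9 of 14 myeloid markers and 7 of the 8 B cell markers on the array, all but Ms4a1. The supplemented arrays stood apart in their spread, the standard deviation (SD) of all log2 values of an array, which was 1.91 to 1.97, against 2.00 to 2.06 on the regular diet and 2.03 to 2.07 on the deprived diet. The mean of the myeloid markers was higher on every supplemented array (5.63 to 5.72) than on any regular array (5.49 to 5.60), with 2 of the 9 tested ones called higher. Of all genes tested 10.8% were called higher between these diets and 22.9% lower. The mean of 8 T cell markers was lower, at 10.25 to 10.5 on supplemented and 10.57 to 10.78 on regular arrays. Of these 8, 4 were called lower and 4 did not pass. The mean of B cell markers overlapped (6.65 to 7.15 and 6.42 to 7.01), with 3 of 7 tested ones called higher. Against the deprived arrays, the mean of 10 stromal and endothelial markers was higher on every supplemented array (6.08 to 6.22 against 5.93 to 6.03), with 5 of 7 tested ones called higher, Pdpn (0.395) and Ccl21 (0.431) among them, and 1 lower. On regular arrays that mean was 6.01 to 6.09, with 1 called higher and 1 lower. Of all genes tested 18.6% were called higher against the deprived diet. By signal these were 937 of 2719 genes in the dimmest of 4 bins and 732 of 2720 in the next, where most of the tested stromal and endothelial markers lie. The part of these markers in the results was not tested, apart from a myeloid covariate named below. In bulk RNA, fewer cells of a type and less RNA per cell cannot be told apart. The change also varied with signal over all genes, as given below. In supplemented minus regular diet its median was 0.11 in the dimmest of 4 bins by mean and -0.207 in the brightest. Most myeloid markers lie in the dimmest bin or below the filter, and all T cell markers in the brightest. The markers were not tested against genes of like signal.

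The first comparison asks how supplementation alters the transcriptome relative to the regular diet. Most cytosolic synthetase genes were lower with supplementation. Of the 17, 13 fell, 0 rose and 4 did not pass, in limma's test across all genes with Benjamini-Hochberg adjustment at 0.05. Among all genes tested, 22.9% were called lower and 10.8% higher. The median change of the cytosolic genes was -0.36 on the log2 scale, beside 0.00061 over all genes tested. The mitochondrial genes had a median of 0.015, with 1 of 11 lower (Hars2), 1 higher (Sars2) and 9 not passing. Both genes that serve the 2 compartments were lower.

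**Figure D1:**
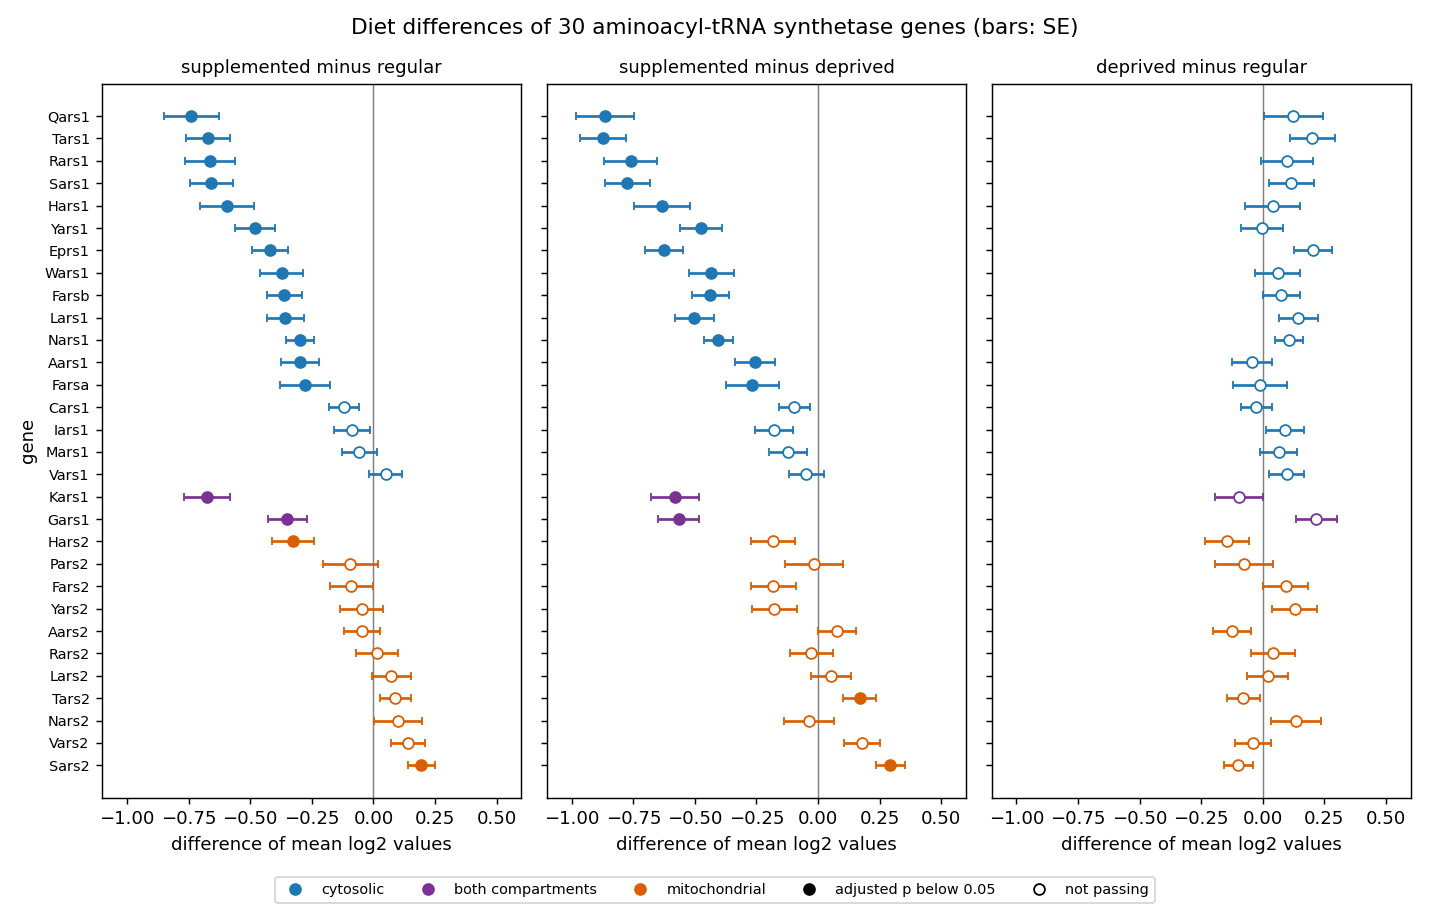
Difference of mean log2 values between diets (horizontal axes) for the 30 synthetase genes (vertical axis), with bars of 1 standard error. Filled points passed an adjusted p of 0.05 in limma. In supplemented minus regular diet the cytosolic genes run from -0.74 to 0.049 and the mitochondrial ones from -0.327 to 0.195, and in deprived minus regular diet no point is filled.

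Tars1 encodes threonyl-tRNA synthetase. Its log2 values ran from 7.36 to 7.98 on supplemented arrays (median 7.61) and from 8.13 to 8.51 on regular arrays (median 8.29). The diets did not overlap, and the difference was -0.67 (SE 0.0882, n = 6 and 6, limma adjusted p = 1e-05), a fold of 0.628. Sars1, the seryl-tRNA synthetase that also charges the selenocysteine tRNA, had values of 8.20 to 8.72 on supplemented arrays (median 8.48) and 8.94 to 9.37 on regular arrays (median 9.12). It changed by -0.66 (SE 0.0867, adjusted p = 1.02e-05), again with every supplemented array below every regular one.

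Qars1 and Rars1, the glutaminyl- and arginyl-tRNA synthetases, are both members of the multi-synthetase complex. Qars1 had the lowest fold of the 30 genes, 0.599, with values of 7.45 to 8.32 on supplemented arrays (median 7.75) and 8.37 to 8.72 on regular arrays (median 8.52). Its change was -0.74 (SE 0.112, adjusted p = 4.23e-05). Rars1 had values of 8.49 to 9.29 on supplemented arrays (median 8.97) and 9.38 to 9.81 on regular arrays (median 9.55), a change of -0.66 (SE 0.101, adjusted p = 4.18e-05). Neither gene overlapped between the diets. Yars1, the tyrosyl-tRNA synthetase, also lay lower on every supplemented array (7.61 to 8.22, median 8.02) than on any regular array (8.32 to 8.57, median 8.47), with a change of -0.48 (SE 0.0811, adjusted p = 0.000125).

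Eprs1 is a bifunctional enzyme of the complex that charges both glutamate and proline tRNAs. It had values of 9.62 to 10.12 on supplemented arrays (median 9.84) and 10.19 to 10.37 on regular arrays (median 10.31). Its change was -0.42 (SE 0.0724, adjusted p = 0.000149), without overlap. Wars1, the tryptophanyl-tRNA synthetase, is known in human cells as a gene induced by interferon gamma. Its values were 7.19 to 7.52 on supplemented arrays (median 7.30) and 7.56 to 8.12 on regular arrays (median 7.65), a change of -0.37 (SE 0.0872, adjusted p = 0.00243). The ranges were close and did not overlap. Of 8 tested interferon-response genes, 5 were called lower, 0 higher and 3 did not pass. Among all genes tested 22.9% were called lower, and 52.6% in the brightest of 4 bins by signal, where some of the 8 lie. The mean of the 9 listed interferon-response genes on the array was 7.38 to 7.93 on supplemented and 7.78 to 8.22 on regular arrays. Their part in the Wars1 result was not tested.

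The other cytosolic genes that fell were Hars1 (-0.59, SE 0.108), Farsb (-0.36, SE 0.0719), Lars1 (-0.36, SE 0.0767), Nars1 (-0.30, SE 0.0554), Aars1 (-0.30, SE 0.0772) and Farsa (-0.28, SE 0.103). They charge histidine, phenylalanine (Farsa and Farsb encode the subunits of 1 enzyme), leucine, asparagine and alanine tRNAs. Farsa had the largest p of these calls (adjusted p = 0.0415). Its regular arrays ran from 7.63 to 8.31 (median 7.72), with replicate 1 the highest, and without that array its adjusted p was 0.117. The call was also lost when regular replicate 5 (0.0506) or 6 (0.0564), or supplemented replicate 2 (0.0844), 3 (0.056) or 5 (0.113), was left out. Aars1 missed it with the mean of the myeloid markers as a covariate (-0.34, adjusted p = 0.0543).

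The supplemented arrays lay wholly below the regular arrays in 9 of 17 cytosolic genes and in Kars1. Among all genes tested this held for 9.92%. The 4 cytosolic genes that did not pass were Cars1 (-0.121, adjusted p = 0.123), Iars1 (-0.0872, adjusted p = 0.357), Mars1 (-0.0572, adjusted p = 0.55) and Vars1 (0.0491, adjusted p = 0.592), the enzymes for cysteine, isoleucine, methionine and valine. For Iars1 the arrays ran from 8.68 to 9.11 on the supplemented diet and from 8.91 to 9.19 on the regular diet. These ranges overlapped between 8.91 and 9.11.

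Of the 7 complex members measured (Eprs1, Iars1, Kars1, Lars1, Mars1, Qars1 and Rars1), 5 were lower and 2 did not pass, with a median of -0.42. Of the 11 cytosolic genes outside the complex, 9 were lower and 2 did not pass, with a median of -0.36. Synthetases fall into a pair of unrelated classes by the fold of the active site. Among class I enzymes of all compartments, 5 of 13 were lower, and among class II enzymes 10 of 16 were lower and 1 was higher. Eprs1 holds an enzyme of each class and was counted in neither. Among all genes tested, 22.9% were called lower and 10.8% higher. By signal, the share lower was 28.6% in bin 3 of 4 and 52.6% in bin 4, the brightest. All complex members but Mars1 and Qars1 lie in bin 4. Neither the classes nor the complex were tested against the rest.

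Kars1, the lysyl-tRNA synthetase, serves the cytosol and mitochondria from 1 gene. It had values of 8.80 to 9.44 on supplemented arrays (median 9.06) and 9.60 to 9.92 on regular arrays (median 9.72), a change of -0.68 (SE 0.0926, adjusted p = 1.4e-05). Gars1, the glycyl-tRNA synthetase, does so too, and had values of 9.002 to 9.503 on supplemented arrays (median 9.32) and 9.498 to 9.709 on regular arrays (median 9.66), a change of -0.35 (SE 0.0782, adjusted p = 0.00172). The Gars1 ranges touched at their edge, while those of Kars1 were apart. RefSeq lists a pseudogene for each of Kars1 (Kars1-ps1) and Hars1 (Hars1-ps1), and a noncoding RNA gene named after Hars2 (Hars2l1). Whether the probes of Kars1, Hars1 or Hars2 also take up RNA of such a gene is not known from these values.

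Among the mitochondrial genes, Sars2, the mitochondrial seryl-tRNA synthetase, had values of 7.033 to 7.219 on supplemented arrays (median 7.102) and 6.787 to 7.031 on regular arrays (median 6.942). Every supplemented array lay above every regular one, by a narrow margin, as in 2.22% of all genes tested, and the change was 0.20 (SE 0.0558, adjusted p = 0.0104). With each array centred on its median it was 0.117 and did not pass (adjusted p = 0.0859), nor with the myeloid markers as a covariate (0.183, adjusted p = 0.146). Hars2, the mitochondrial histidyl-tRNA synthetase, ran from 7.76 to 8.35 on supplemented arrays (median 8.07) and from 8.17 to 8.52 on regular arrays (median 8.45), a change of -0.33 (SE 0.0861, adjusted p = 0.00602). These ranges overlapped, and without the 2 supplemented arrays of smallest spread (replicates 2 and 5) Hars2 was at -0.229 and did not pass (adjusted p = 0.0582).

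The 9 mitochondrial genes that did not pass lay between -0.0944 (Pars2, the prolyl enzyme) and 0.14 (Vars2, the valyl enzyme). A p that misses the threshold does not show that the diets were equal for them. The median standard error was 0.0838 for the mitochondrial and 0.0772 for the cytosolic genes.

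Enzymes that charge the same amino acid in the cytosol and in mitochondria were then set side by side. For 12 pairs of a cytosolic and a mitochondrial gene, the difference of the log2 values was taken within each array and compared between diets with a linear model. This compares changes, not levels, and the 95% intervals are not adjusted for the number of pairs. The 2 phenylalanyl pairs share Fars2. In supplemented minus regular diet the interval was below 0, the cytosolic gene having changed more negatively, in 8 of 12 pairs, and it included 0 in the other 4. The widest gap was for serine, where Sars1 and Sars2 differed by -0.854 (95% interval -1.11 to -0.602). For threonine, Tars1 and Tars2 differed by -0.76 (-1.05 to -0.469), and for arginine Rars1 and Rars2 by -0.678 (-0.991 to -0.366). The valine pair gave -0.0908 (-0.304 to 0.122). After quantile normalization or cyclic loess the interval was below 0 in 5 pairs. The cytosolic gene was the brighter one in every pair but Farsa and Fars2 (Sars1 had a mean of 8.93 and Sars2 of 6.97). Over all genes the change in this comparison fell with signal, from a median of 0.11 in the dimmest of 4 bins to -0.207 in the brightest. The part of signal in these gaps was not tested.

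**Figure D2:**
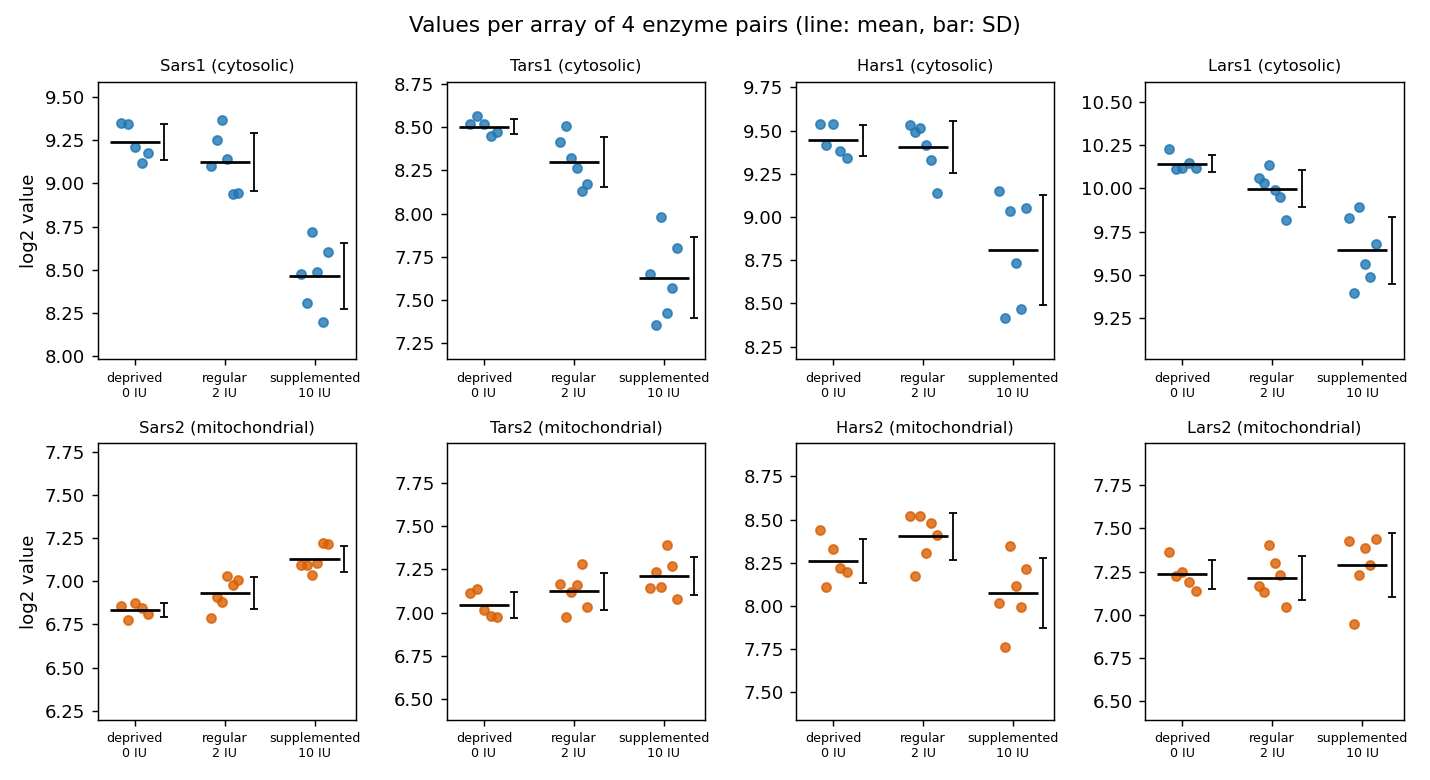
Log2 values of 4 cytosolic genes (upper row) and their mitochondrial partners (lower row) on each array, by diet in order of vitamin D dose, with the mean as a line and the SD as a bar. All panels span the same number of log2 units. Sars1 and Tars1 are lowest on the 6 supplemented arrays, Sars2 is highest there, and Lars2 overlaps across the diets.

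In the histidine pair both genes fell. Hars1 changed by -0.594 and Hars2 by -0.327, a gap of -0.267 (-0.499 to -0.0346). These genes stand head to head on chromosome 18. In RefSeq's annotation of GRCr8 the transcript of Hars1 starts at 28672712 on the minus strand and that of Hars2 at 28672856 on the plus strand, 144 bases apart. The stretch chr18:28672712-28672855 is shown on the plus strand, the Hars2 strand, because it lies between both starts:
Hars1 and Hars2: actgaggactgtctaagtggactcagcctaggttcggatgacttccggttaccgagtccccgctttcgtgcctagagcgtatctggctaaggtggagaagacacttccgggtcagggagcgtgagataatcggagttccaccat

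A second, dimmer transcript cluster annotated to Hars1 (mean log2 value 6.12) had a difference of -0.198 between supplemented and regular means. The cluster used here had a mean of 9.21.

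**Figure D3:**
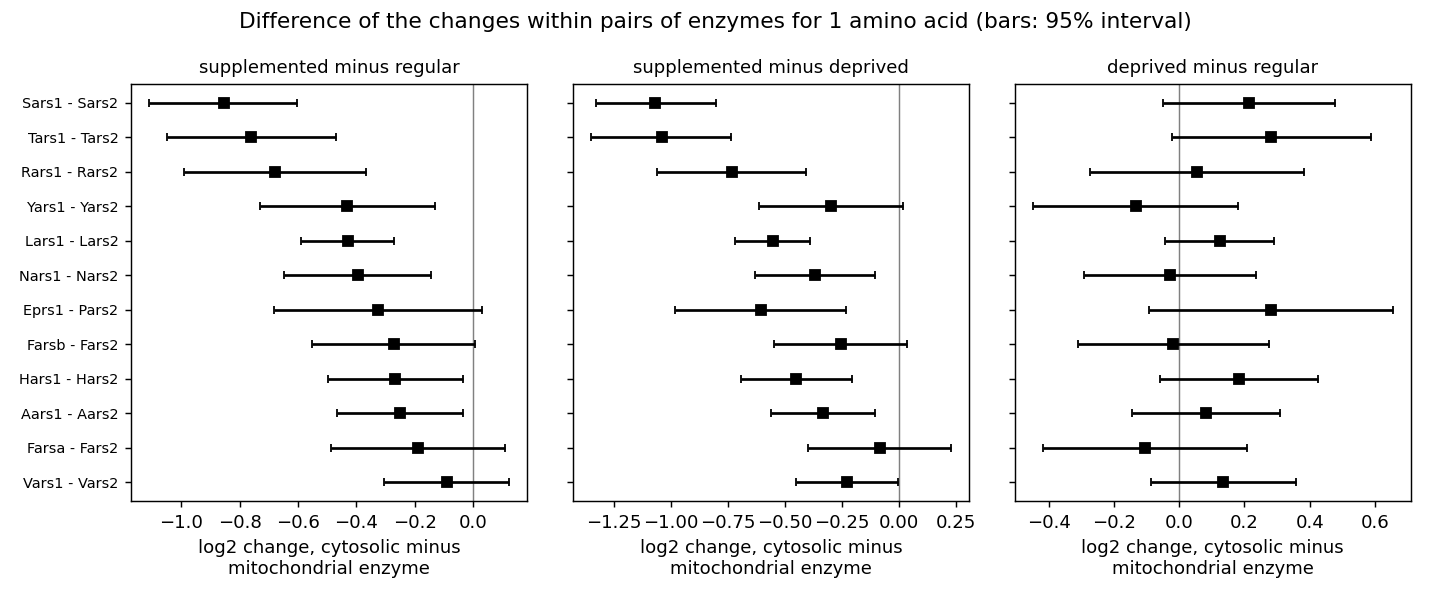
Change of the cytosolic gene minus change of the mitochondrial gene (log2, horizontal axes) for 12 pairs that charge the same amino acid (vertical axis), with 95% intervals. In supplemented minus regular diet 8 intervals lie below 0, in supplemented minus deprived diet 9, and in deprived minus regular diet all 12 include 0.

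Across all genes the change varied with the mean log2 value. Tested genes were split into 4 bins of equal size by that mean, and the median change in supplemented minus regular diet was 0.11 in bin 1 (the dimmest), 0.0611 in bin 2, -0.0856 in bin 3 and -0.207 in bin 4. Of the cytosolic synthetases, 7 lay in bin 4, 9 in bin 3 and 1 (Vars1) in bin 2, while 7 mitochondrial ones lay in bin 3, 3 in bin 2 and 1 in bin 1. Within bin 3, with means of 7.07 to 8.34, 7 of 9 cytosolic genes were lower (median -0.36) and 1 of 7 mitochondrial genes (median 0.015), beside 777 of all 2720 genes there. The sets still differ in signal within this bin, with a median mean of 8.12 for its cytosolic and 7.25 for its mitochondrial genes, so the bin does not match them for level. In bin 4, 6 of 7 cytosolic genes were lower (median -0.42), beside 1431 of all 2720 genes.

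**Figure D4:**
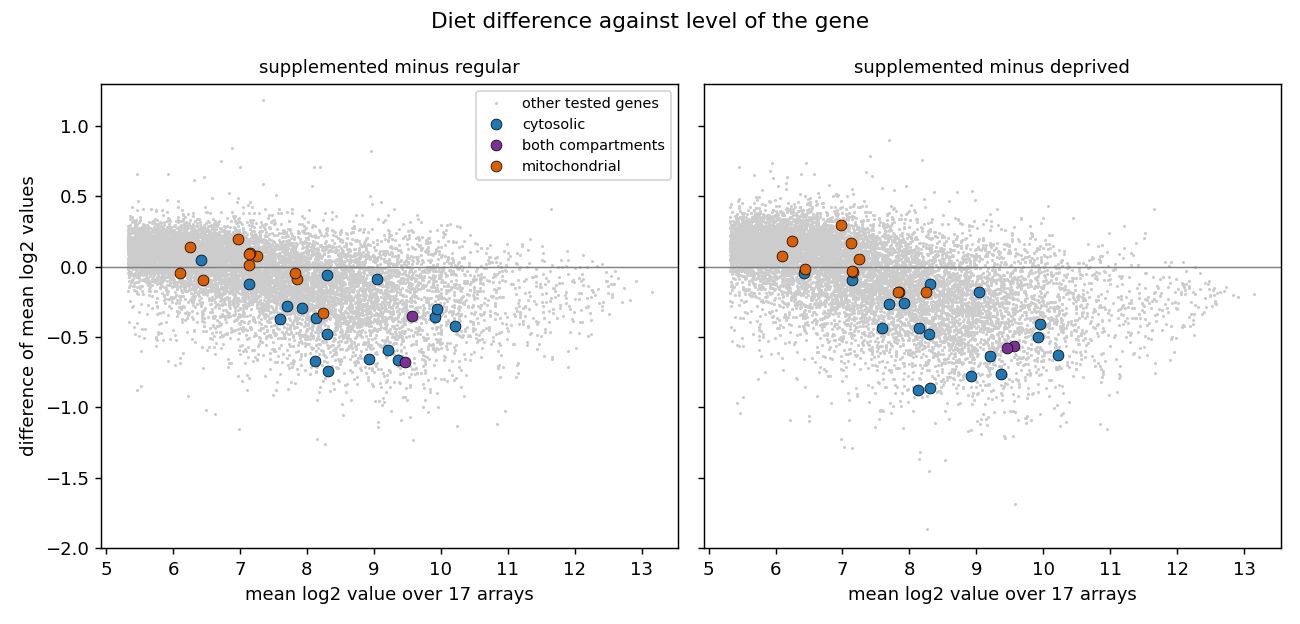
Difference of mean log2 values (vertical axes) against the mean log2 value over 17 arrays (horizontal axes) for the 10879 genes tested (grey) and the synthetases. In the left panel, between means of 7.07 and 8.34, the cytosolic points have a median of -0.36 and the mitochondrial ones of 0.015, the cytosolic ones lying further to the right.

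The spread of the arrays moved with the cytosolic result. The mean of the 17 cytosolic genes was 8.05 to 8.41 on supplemented arrays, against 8.51 to 8.74 on regular arrays, and its lowest values (8.05 and 8.08) came from the 2 arrays of smallest spread. The mean of the 11 mitochondrial genes overlapped, at 7.08 to 7.23 on supplemented and 6.94 to 7.20 on regular arrays. Without those 2 supplemented arrays 12 cytosolic genes were called lower. Of all genes tested 2171 were then called in either direction, against 3661 with every array. After quantile normalization 11 cytosolic genes were called lower with a median of -0.249, and Farsa, Nars1 and the dual gene Gars1 did not pass. That step left 2777 of all genes called. The changes of Eprs1 (-0.249), Lars1 (-0.176), Nars1 (-0.123) and Gars1 (-0.17) were then smaller in size than in the deposited values. With the spread of each array as a covariate 0 of the 10879 genes tested were called in limma, and so none of the 30. Of the 30 genes, 3 had an unadjusted p below 0.05. Of these 3, Mars1 (0.328) and Iars1 (0.249) were higher with supplementation and Tars1 (-0.335) lower. The cytosolic median was -0.0106 and the median standard error 0.132. The spread of supplemented arrays did not overlap with that of the other diets, so in that fit diet and spread cannot be told apart.

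**Figure D5:**
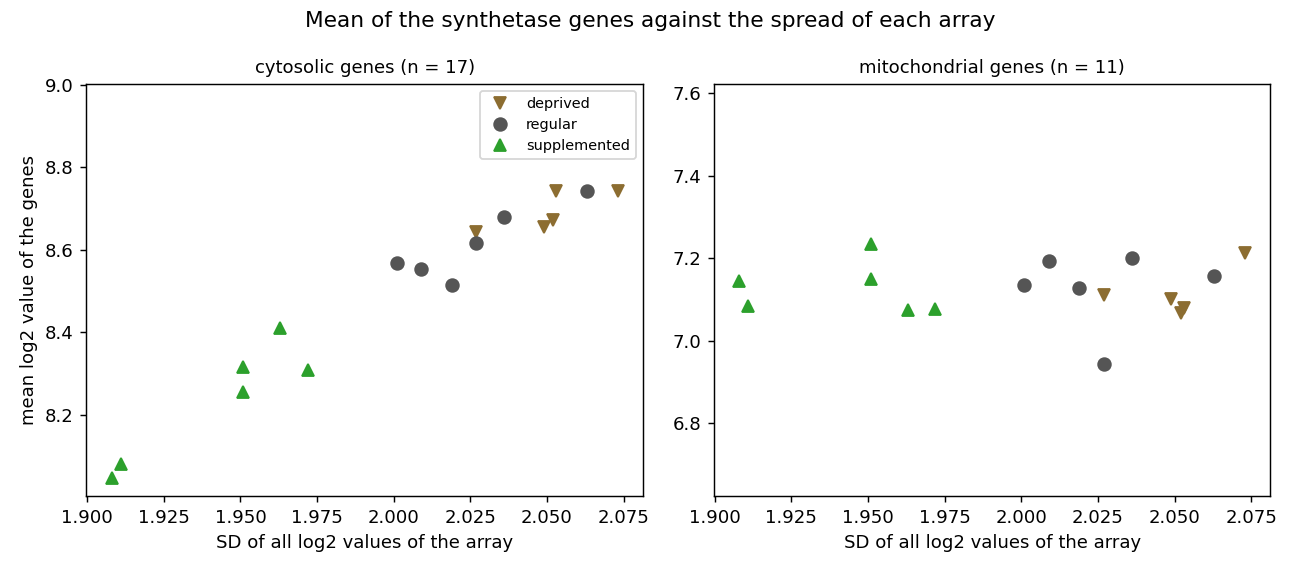
Mean log2 value of the 17 cytosolic (left) and 11 mitochondrial genes (right) on each array against the SD of all log2 values of that array, with a symbol for each diet. The cytosolic means lie at 8.64 to 8.74 on deprived, 8.51 to 8.74 on regular and 8.05 to 8.41 on supplemented arrays, and both vertical axes span 1 log2 unit.

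The promoters were searched for the letters of a pair of known elements: the C/EBP-ATF response element, through which Atf4 raises synthetase genes when amino acids run short, and the E-box, which Myc can bind. RefSeq's GRCr8 table held the 250 bases before and 50 after the transcript start for 28 of the 30 genes, all but Gars1 and Rars1. The response element, TGATGNAA on either strand, was found in 7 of 16 cytosolic promoters (43.8%) and 0 of 11 mitochondrial ones, against 3.82% of all 27457 promoters in the table and 2.33% of those of tested genes. The E-box CACGTG was found in 5 of 16 cytosolic (31.2%) and 0 of 11 mitochondrial promoters, against 6.65% of all and 9.08% of those of tested genes. The motifs do not overlap each other in these promoters. The response elements that lie before the start are shown in capitals, on the strand of each gene, because genes that fell with supplementation (Tars1, Nars1, Aars1) and genes that did not pass (Iars1, Mars1) both hold these letters:
Tars1, chr2:62114803-62114854, minus strand: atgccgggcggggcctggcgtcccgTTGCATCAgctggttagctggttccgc
Iars1, chr17:15193653-15193701, minus strand: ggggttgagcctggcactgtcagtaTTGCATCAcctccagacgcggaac
Mars1, chr7:65023754-65023795, minus strand: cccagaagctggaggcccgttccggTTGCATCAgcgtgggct
Nars1, chr18:60275783-60275821, minus strand: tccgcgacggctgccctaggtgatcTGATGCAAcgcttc
Aars1, chr19:55908345-55908402, plus strand: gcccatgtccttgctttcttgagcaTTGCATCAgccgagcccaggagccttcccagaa

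The element begins at position -27 from the start in Tars1, -24 in Iars1, -17 in Mars1, -14 in Nars1 and -112 in Aars1. Cars1 and Yars1 hold it after the start, and Aars1 has a second match there. Of the 7 cytosolic genes with the element, 4 were lower on the supplemented diet (Aars1, Nars1, Tars1 and Yars1), and of the 9 without it, 8 were. Cars1, Iars1 and Mars1, which hold it, were among the 4 cytosolic genes that did not pass. For the E-box the counts were 3 of 5 with it and 9 of 11 without. A match describes letters and says nothing of whether a factor was bound.

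Supplemented and deprived rats, the ends of the diet range, were compared next, with the same supplemented arrays. Of the cytosolic genes 13 were lower, all 13 of them also lower against the regular diet, 0 were higher and 4 did not pass. Among all genes tested, 28.6% were lower and 18.6% higher. The share called lower rose with signal here too. It was 35.6% in bin 3, where 7 of 9 cytosolic genes were lower. In bin 4 it was 65.3% (median change of all genes there -0.281), and 6 of 7 cytosolic genes were lower. The cytosolic median was -0.44 and the mitochondrial one -0.018, with 0 mitochondrial genes lower, 2 higher and 9 not passing. The stromal and endothelial markers given above moved in this comparison too, and their part in it was not tested. The supplemented arrays lay wholly below the deprived ones in 11 of 17 cytosolic genes and in both Gars1 and Kars1, as in 17.7% of all genes.

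Tars1 had the lowest fold of the 30 genes here, 0.546. Its values were 7.36 to 7.98 on supplemented arrays, against 8.52, 8.56, 8.52, 8.45 and 8.47 on the 5 deprived arrays, a change of -0.873 (SE 0.0925, n = 6 and 5, limma adjusted p = 4.83e-07). Qars1 had 7.45 to 8.32 on supplemented arrays, against 8.70, 8.68, 8.61, 8.67 and 8.64 on deprived arrays, a change of -0.865 (SE 0.118, adjusted p = 6.32e-06). The deprived arrays of both genes lay close together and above every supplemented one. Sars1 had 8.20 to 8.72 on supplemented arrays, against 9.35, 9.34, 9.21, 9.12 and 9.18 on deprived arrays, a change of -0.77 (SE 0.0909, adjusted p = 1.29e-06). Rars1 had 8.49 to 9.29, against 9.68, 9.77, 9.65, 9.53 and 9.69 on deprived arrays, a change of -0.76 (SE 0.106, adjusted p = 7.76e-06). Neither gene overlapped.

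Eprs1 had 9.62 to 10.12 on supplemented arrays, against 10.55, 10.48, 10.52, 10.47 and 10.50 on deprived arrays, a change of -0.625 (SE 0.0759, adjusted p = 1.73e-06). Nars1, the asparaginyl-tRNA synthetase, had 9.58 to 9.81 on supplemented arrays, against 10.16, 10.11, 10.04, 10.10 and 10.20 on deprived arrays, a change of -0.405 (SE 0.0581, adjusted p = 1.13e-05). Both were apart between these diets. Gars1 had 9.00 to 9.50, against 9.94, 9.90, 9.73, 9.83 and 9.81 on deprived arrays (-0.566, SE 0.082, adjusted p = 1.22e-05). Kars1 had 8.80 to 9.44, against 9.67, 9.82, 9.68, 9.52 and 9.47 on deprived arrays (-0.58, SE 0.0971, adjusted p = 6.37e-05). The dual genes did not overlap either. After quantile normalization these changes were smaller in size, at -0.373 for Eprs1, -0.15 for Nars1, -0.316 for Gars1 and -0.344 for Kars1, and all 4 still passed (adjusted p = 0.000165, 0.0217, 0.00128 and 0.004). Wars1 had 7.19 to 7.52, against 7.81, 7.91, 7.70, 7.65 and 7.77 on deprived arrays (-0.434, SE 0.0915, adjusted p = 0.000644), again without overlap. Aars1 (-0.255, adjusted p = 0.0139) and Farsa (-0.267, adjusted p = 0.0466) did not pass after quantile normalization (adjusted p = 0.127 and 0.142) or without the 2 supplemented arrays of smallest spread (0.0878 and 0.258). Farsa also missed the threshold without any single deprived replicate from 2 to 5 (adjusted p from 0.0642 to 0.121), among other left-out arrays.

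Sars2 had 7.03 to 7.22 on supplemented arrays, against 6.86, 6.78, 6.87, 6.85 and 6.81 on deprived arrays. The groups did not overlap, as in 6.4% of all genes in that direction, and the change was 0.29 (SE 0.0586, adjusted p = 0.000372). In bin 2, where Sars2 lies, 732 of 2720 genes were called higher in this comparison (median change of all genes there 0.0893). Tars2, the mitochondrial threonyl-tRNA synthetase, had 7.08 to 7.39 on supplemented arrays (median 7.19), against 7.11, 7.13, 7.01, 6.98 and 6.97 on deprived arrays, which overlap. It was called at 0.169 (SE 0.0672, adjusted p = 0.0439), but not after quantile normalization (0.162, adjusted p = 0.057), with median-centred arrays (0.0646, adjusted p = 0.478), or without deprived replicate 4, 5 or 6 (adjusted p = 0.0815, 0.0882 and 0.0988) or supplemented replicate 2, 4 or 5 (0.0694, 0.104 and 0.0789). Hars2 did not pass (-0.183, SE 0.0903, adjusted p = 0.0973). Within the pairs the interval was below 0 in 9 of 12, and in 5 after quantile normalization. Sars1 and Sars2 were at -1.07 (-1.33 to -0.804) and Tars1 and Tars2 at -1.04 (-1.35 to -0.737). Over all genes the change fell with signal here too, from a median of 0.143 in bin 1 to -0.281 in bin 4. The part of signal in the pair gaps was not tested.

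Deprivation was compared with the regular diet last. None of the 30 genes was called in limma, where 1.67% of all genes were, and 3 had an unadjusted p below 0.05. The 182 genes behind that share were 33 without deprived replicate 6, and 33 to 244 over all arrays left out in turn. The 3 synthetase genes with an unadjusted p below 0.05 were Eprs1 (0.205, SE 0.0759, adjusted p = 0.17), Gars1 (0.218, SE 0.082, adjusted p = 0.178) and Tars1 (0.202, SE 0.0925, adjusted p = 0.27). Eprs1 had values of 10.47 to 10.55 on deprived and 10.19 to 10.37 on regular arrays, and Gars1 had 9.73 to 9.94 on deprived and 9.50 to 9.71 on regular arrays. Neither overlapped, as in 4.52% of all genes in that direction. Both passed in limma with array weights (adjusted p = 0.0303 for Eprs1 and 0.0446 for Gars1) and with only these 2 diets in the fit (0.0345 and 0.0459). Those fits called more of the 10879 genes tested, 889 with array weights and 463 with only these diets, against the 182 above. Of the 17 cytosolic genes 13 had a positive difference (median 0.0915), and of the mitochondrial genes 5 of 11 (median -0.0387). Of all genes tested 49.9% were positive, and the share rose with signal, to 53.5% in bin 3, where 5 of 9 cytosolic genes were positive, and 74.3% (median 0.083) in bin 4, where 7 of 7 were. All 12 pair intervals included 0, among them Tars1 and Tars2 (0.282, -0.0232 to 0.587).

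In order of dose, Tars1 averaged 8.50 ± 0.0444 on the deprived, 8.30 ± 0.144 on the regular and 7.63 ± 0.234 on the supplemented diet (SD, n = 5, 6 and 6). Sars2 ran the other way, at 6.83 ± 0.0388, 6.93 ± 0.091 and 7.13 ± 0.074 in the same order. In both genes the supplemented mean differed from each of the other means in limma, while the difference between deprived and regular means did not pass. In the moderated F test over the diets, 17 of the 30 genes passed, 13 cytosolic, 2 mitochondrial (Hars2 and Sars2) and both dual ones, against 45.3% of all genes tested.

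Genes that work beside the synthetases were read from lists of their pathway, to be set beside the 22.9% of all genes called lower in supplemented minus regular diet. That share rose with signal, from 2.32% in bin 1 and 7.98% in bin 2 to 28.6% in bin 3 and 52.6% in bin 4. A list of 10 tested genes held scaffold and proofreading genes with 3 of other roles: Tars3, a threonyl-tRNA synthetase, Ptrh2, a peptidyl-tRNA hydrolase, and Ybx1. Of these 10 genes, 5 (50%) were lower on the supplemented than on the regular diet and 5 did not pass (median -0.253). Most of them lie in bin 4, and 50% is no more than the 52.6% of all genes there. Aimp1, the scaffold that binds arginyl-tRNA synthetase, averaged 8.595 ± 0.292 on the supplemented and 9.622 ± 0.0894 on the regular diet (SD, n = 6 and 6), a change of -1.03 (SE 0.101, limma adjusted p = 1.13e-06). Eef1e1 was at -0.287 (SE 0.098, adjusted p = 0.0279), and Aimp2 did not pass at -0.214 (SE 0.0831, adjusted p = 0.0507). Dtd1, which removes D-amino acids from tRNA, changed by -0.799 (SE 0.0801, adjusted p = 1.13e-06), and Ybx1, a general RNA-binding protein, by -0.598 (SE 0.0796, adjusted p = 1.06e-05). Against the deprived diet 7 of these genes, with Tars3, Ptrh2 and Ybx1 among them, were lower (70%, against 28.6% of all genes and 65.3% of those in bin 4). Between deprived and regular diet none of the list passed.

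After charging, elongation factors bring the tRNA to the ribosome. Of 9 cytosolic elongation and termination genes 8 (88.9%) were lower on the supplemented than on the regular diet (median -0.343), beside 52.6% of all genes in bin 4, where all 9 lie, and 1, Eef1a1, which delivers charged tRNA, did not pass (-0.0282, adjusted p = 0.69). Its exchange factor genes Eef1b2 (-0.782, SE 0.0914, adjusted p = 3.19e-06) and Eef1d (-0.42, SE 0.0623, adjusted p = 3.25e-05) fell. Of 13 mitochondrial translation factors 5 (38.5%) were lower and 8 did not pass (median -0.145). Those that fell included the elongation factor genes Tufm (-0.374, SE 0.0751, adjusted p = 0.000658) and Gfm1 (-0.361, SE 0.0725, adjusted p = 0.000667) and the release factor gene Mtrf1l (-0.495, SE 0.0927, adjusted p = 0.000341). Tufm (0.33, adjusted p = 0.0367) and Mtrf1l (0.378, adjusted p = 0.0481) were also higher on the deprived than on the regular diet, 2 of the 13 (15.4%, against 1.67% of all genes in either direction).

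Of 20 tested tRNA maturation genes 10 (50%) were lower on the supplemented than on the regular diet and 10 did not pass (median -0.165). Most of them lie in bins 3 and 4, where 28.6% and 52.6% of all genes were lower. Thg1l, which adds the extra guanosine of histidine tRNA, changed by -0.79 (SE 0.105, adjusted p = 1.06e-05), the tRNA methyltransferase gene Nsun2 by -0.396 (SE 0.061, adjusted p = 4.92e-05) and Polr3g, a subunit of the polymerase that transcribes tRNA genes, by -0.51 (SE 0.109, adjusted p = 0.00118).

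Amino acid stress genes gave 6 lower, 1 higher and 11 not passing of 18 tested (median -0.111), or 33.3% lower and 5.56% higher, beside 22.9% and 10.8% of all genes. Atf4, the transcription factor of this response, changed by -0.311 (SE 0.058, adjusted p = 0.000329). The folate enzyme gene Mthfd2 changed by -0.704 (SE 0.107, adjusted p = 4.14e-05) and the serine synthesis gene Psat1 by -0.461 (SE 0.116, adjusted p = 0.00438), while the proline synthesis gene Pycr1, the 1 that was higher, changed by 0.25 (SE 0.0719, adjusted p = 0.0108). Of 11 tested amino acid transporter genes, Slc3a2 was lower (-0.255, adjusted p = 0.00832), Slc7a6 higher (0.233, adjusted p = 0.016) and 9 did not pass. Slc38a2, a glutamine transporter, was the 1 transporter called between deprived and regular diet (0.356, SE 0.0811, adjusted p = 0.0292). Of 10 growth regulators, Rheb, the GTPase that activates mTOR (-0.476, SE 0.0747, adjusted p = 5.78e-05), and Myc (-0.259, SE 0.0709, adjusted p = 0.00776) were lower and 8 did not pass. That is 20% of this list, no more than the 22.9% of all genes.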

How the data were processed

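The authors deposited a log2 value for every transcript cluster on every array. Per the submitters' processing notes RMA and Partek 6.0 were used. The log base was read from the range of values, and no source used here gives the probe file, build or scan batches. Clusters were named through GEO's platform annotation, with symbols updated by Entrez identifier. Of 29214 clusters 15310 had 1 symbol, 323 several and 13581 were not listed. The lowest 25% of genes by mean were left out (lowest mean kept 5.321). The deposited values of all 3 diets entered a single limma fit (version 3.58.1, R 4.3.3; lmFit and eBayes), with Benjamini-Hochberg adjustment over all tested genes, and the code was tested on simulated data. The number of arrays limits precision. The p-values measure the spread between arrays, which may be technical in part. Members and lists were chosen with earlier results of these data known. Values by array are given for up to 6 called genes per compartment with the smallest adjusted p in a comparison, and for Gars1, Kars1, Wars1, Eprs1 and genes called opposite to most of their compartment. Of each pathway list, up to 3 genes with the smallest adjusted p in a comparison were named, with Atf4, Aimp1, Aimp2 and Eef1e1. Eef1a1, Pycr1, Tars3, Ptrh2, Pdpn and Ccl21 were named after their values were seen. Alternatives were other normalizations (quantile, cyclic loess, median centring), other level filters, the mean of all clusters, trend and robust moderation, weighted arrays, a replicate block, array spread or myeloid markers as a covariate, fits of 2 diets, a threshold of 0.1 and left-out arrays.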

Additional observations from a re-analysis of the deposited data

Results flagged for a closer look

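In 6 of 90 sets of values (30 genes on 3 diets) a single array stood far from the others of its diet by Dixon's criterion, which chance gives in about 5% of sets. Regular replicate 1 was high for Farsa (8.307, the others 7.626 to 7.78) and Wars1 (8.12, the others 7.559 to 7.7). Regular replicate 2 was low for Nars2 (6.647, the others 7.096 to 7.274). Deprived replicate 4 was low for Cars1 (7.004, the others 7.187 to 7.25), and deprived replicate 2 was high for Lars1 (10.23, the others 10.11 to 10.14). Supplemented replicate 2 was low for Iars1 (8.679, the others 8.957 to 9.109).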

How the results depend on the processing

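Of the 30 genes 17 were called in supplemented minus regular diet and 17 in supplemented minus deprived diet. Leaving out 1 array at a time gave 16 to 17 and 15 to 18, with 16 to 17 in the F test and 0 for deprived minus regular diet. With array spread as a covariate the counts were 0 in the first 2 comparisons and in the F test, the cytosolic medians were -0.0106 and -0.0107, and none of the tested genes was called in these comparisons. Of the 34 differences called, 11 changed sign there, none passing: for supplemented minus regular diet Aars1 (0.00507), Farsa (0.25), Gars1 (0.0117), Hars1 (0.00989), Hars2 (0.00513) and Lars1 (0.00489), and for supplemented minus deprived diet Aars1 (0.139), Farsa (0.421), Hars1 (0.152), Kars1 (0.0367) and Wars1 (0.0382). Of the 13 uncalled genes in supplemented minus regular diet 4 changed sign too (Cars1, Iars1, Mars1 and Vars2). The cause was not tested. The cytosolic medians in these comparisons were -0.249 and -0.301 after quantile normalization and -0.236 and -0.301 after cyclic loess, and each gave 5 pairs with an interval below 0 in each comparison. Median centring moved the median of all genes to -0.0779 and -0.103, and in supplemented minus deprived diet the medians were then -0.542 for cytosolic and -0.122 for mitochondrial genes. For deprived minus regular diet 2 genes were called with array weights and 2 with only these diets fitted. Over all genes 182 were called, against 40 after quantile normalization, 84 after loess, 889 with array weights and 463 with only these diets fitted. Leaving out arrays, the cytosolic medians ran from -0.393 to -0.311 (supplemented minus regular), -0.47 to -0.405 (supplemented minus deprived) and 0.0643 to 0.104 (deprived minus regular), and the mitochondrial ones from -0.0468 to 0.0529, -0.026 to 0.0502 and -0.0643 to 0.00752. Deviations of same-numbered arrays correlated from -0.207 to 0.195 over 16 pairs, and 1 of 17 arrays correlated best with its own number. This check showed no clear pairing by number and cannot exclude a weak one. With the replicate block 17, 18 and 0 genes were called, and of the reported calls Tars2 was lost (adjusted p = 0.0514).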
